A study of Rattus norvegicus with 6 samples.

Results

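Splicing regulators of the SR, hnRNP and RBM families were followed in HEI-OC1 cells, an auditory line of organ of Corti origin, with an siRNA against Hnrnpd, itself a member of the hnRNP family. The members were all protein-coding rows of the deposited count table whose symbol belongs to the Srsf, Hnrnp, Rbm, Ptbp, Tra2, Srrm, Mbnl, Rbfox, Khdrbs, Nova or Esrp families or is Cirbp, leaving out the siRNA target and its nearest relatives Hnrnpdl and Hnrnpab. The rule found 82 rows of 18718, under 80 symbols, because Hnrnpa3 and Rbm4b each name 2 rows. It used only names, not measured values, but was chosen with earlier results of these data known. The rule also covers Hnrnpk and Qki but found no protein-coding row under either symbol, so neither is part of the levels and totals below. Whether this reflects the gene models was not tested.

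The knock-down cells carried the siRNA against Hnrnpd, which the labels describe as a knock-down of AUF1, the protein Hnrnpd encodes, and are called siHnrnpd 1 to 3. The control cells received a control siRNA and are called control 1 to 3. Both groups came from the same line, grown at 37 °C. The siRNA sequence, its dose and the time after transfection are not given in the labels, nor whether replicates are separate cultures, so the spread behind each p-value is that of these libraries and may be technical. The line is usually described as murine, made from animals with a temperature-sensitive immortalising transgene, while the labels give rat and the gene models are rat. Levels compared between genes carry that limit, and which species the reads came from was not tested. In bulk RNA a change in the share of cells and a change in RNA per cell cannot be told apart.

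The proteins of these families bind pre-mRNA and decide which exons are kept. SR proteins carry an arginine and serine-rich tail and mostly promote the use of nearby exons, while many hnRNPs, PTB proteins among them, mostly repress them. RBM proteins are a looser group named for the RNA recognition motif, with roles that run from the core spliceosome to ribosome assembly. Many of these genes control their own level by making a transcript that is destroyed, so that a family member can respond when another is lost. The tables hold 1 value per gene, so exon use itself was not measured.

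The libraries held 28984535 to 35842904 gene counts. The target, listed as Hnrpd, was at 62.8% of its control level (187 ± 12.2 CPM in siHnrnpd and 297 ± 25.9 CPM in control, SD, n = 3 each; edgeR adjusted p = 0.0426, which passed without siHnrnpd 2 but not when any other library was left out). CPM here means counts relative to library sizes after TMM scaling, and FPKM is the authors' length-scaled value. Of 12 hair cell markers, 9 were matched, and the sum of their FPKM was 4.22 to 4.44 in siHnrnpd and 4.60 to 5.24 in control. Most of that sum was Myo6, while Gfi1, Myo7a, Slc26a5, Slc17a8 and Otof each stayed under 0.1 FPKM. Ocm, an outer hair cell marker, was at 0.29 to 0.56 FPKM in siHnrnpd and 0.67 to 0.82 FPKM in control, and Cdh23 at 0.05 to 0.11 FPKM in siHnrnpd and 0.04 to 0.05 FPKM in control. Both rest on few counts: Ocm, matched by synonym, had 8 to 24 per library and Cdh23 had 13 to 37. Of the 4 hair cell markers tested, an unadjusted p under 0.05 (edgeR) was found for 1 higher and 1 lower marker (11.0% of all genes). In a list of 4, such counts say little. The log2 values ran from -0.87 to 0.80, and 0 passed after adjustment by edgeR or DESeq2 (0.0815% and 1.41% of all genes). Of 12 fibroblast and mesenchymal markers, 8 reached 1 FPKM, and the list summed to 2520 to 3160 FPKM in siHnrnpd and 2580 to 2760 in control, highest in siHnrnpd 3. Most of it was Vim, at 1668 to 2121 FPKM in siHnrnpd and 1798 to 1873 FPKM in control. Dcn, Postn and Acta2 stayed at 0.15 FPKM or less. Col1a2 was at 0.54 to 0.75 FPKM over the libraries, while Col1a1 was at 279.9 to 413.5 FPKM. The part of these lists in the results on splicing regulators was not tested. Macrophage markers summed to 35.3 to 38.0 FPKM in siHnrnpd and 31.2 to 34.0 FPKM in control, nearly all of it Cd14, with Ptprc, Adgre1, Csf1r and Itgam at 0.02 FPKM or less. Neuron, glia and endothelial markers each summed to at most 1.18 FPKM in any library, and supporting cell markers to 57.1 to 77.3 FPKM in siHnrnpd and 60.5 to 65.0 FPKM in control. Most of the supporting cell sum was Cdkn1b and Hes1, while Jag1, Lfng and Notch1 were at 1.78 to 5.44 FPKM. Fgfr3 and Gata3 stayed under 1 FPKM and Prox1 at 0.01 FPKM or less. Sox2, Hes5, Gjb2 and Gjb6 were not matched. Epithelial markers summed to 5.28 to 6.03 FPKM in siHnrnpd and 5.14 to 5.94 FPKM in control, nearly all of it Grhl2, with Epcam and Cdh1 at 0.02 FPKM or less.

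The cells used a small part of the families heavily. By mean FPKM over the 6 libraries, 11 members stood at 100 or more, 37 between 10 and 100, 18 between 1 and 10, and 16 under 1. The summed level of all members was 3570 ± 122 FPKM in siHnrnpd and 3505 ± 107 FPKM in control (SD, n = 3 each), a difference smaller than the spread in either group. The 17 hnRNP rows held about as much as the rest together, at 1837 ± 91.1 FPKM in siHnrnpd and 1814 ± 96.1 FPKM in control. The 11 SR genes followed at 750.3 ± 28.4 FPKM in siHnrnpd and 741 ± 10.4 FPKM in control.

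Highest of all was Hnrnpa2b1, a shuttling hnRNP that binds nascent transcripts and sorts RNAs for transport. It had 288, 332 and 325 FPKM in siHnrnpd 1 to 3 and 326, 287 and 284 FPKM in control 1 to 3, so the groups overlapped. Next came the Hnrnpa3 row on chromosome 3 (ENSRNOG00000052968), then Hnrnpl, which binds CA-rich stretches, Hnrnpf, which binds runs of G, and Hnrnpa1, a repressor of splice sites. Among SR genes Srsf2, which acts on exonic enhancers, led with 166 ± 8.0 FPKM in siHnrnpd and 163 ± 0.40 FPKM in control, or 22.1% and 22.0% of the SR total. Srsf7 and Srsf5 held 18.7% and 14.1% of that total in siHnrnpd, against 18.4% and 14.5% in control. The highest RBM gene was Rbm8a, a core part of the exon junction complex, at 115 ± 5.22 FPKM in siHnrnpd and 116 ± 1.40 FPKM in control (SD, n = 3 each). The order of levels is not sharp: of the 19 neighbouring pairs among the 20 highest members, the ranges over the 6 libraries were apart in 4, which were Hnrnpa3 over Hnrnpl, Srsf2 over Ptbp1, Srsf7 over Hnrnpu, and Srsf5 over Srsf3. Hnrnpa1 and Hnrnpa3 have many near-identical copies in rodent genomes, so their counts are uncertain.

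**Figure D1:**
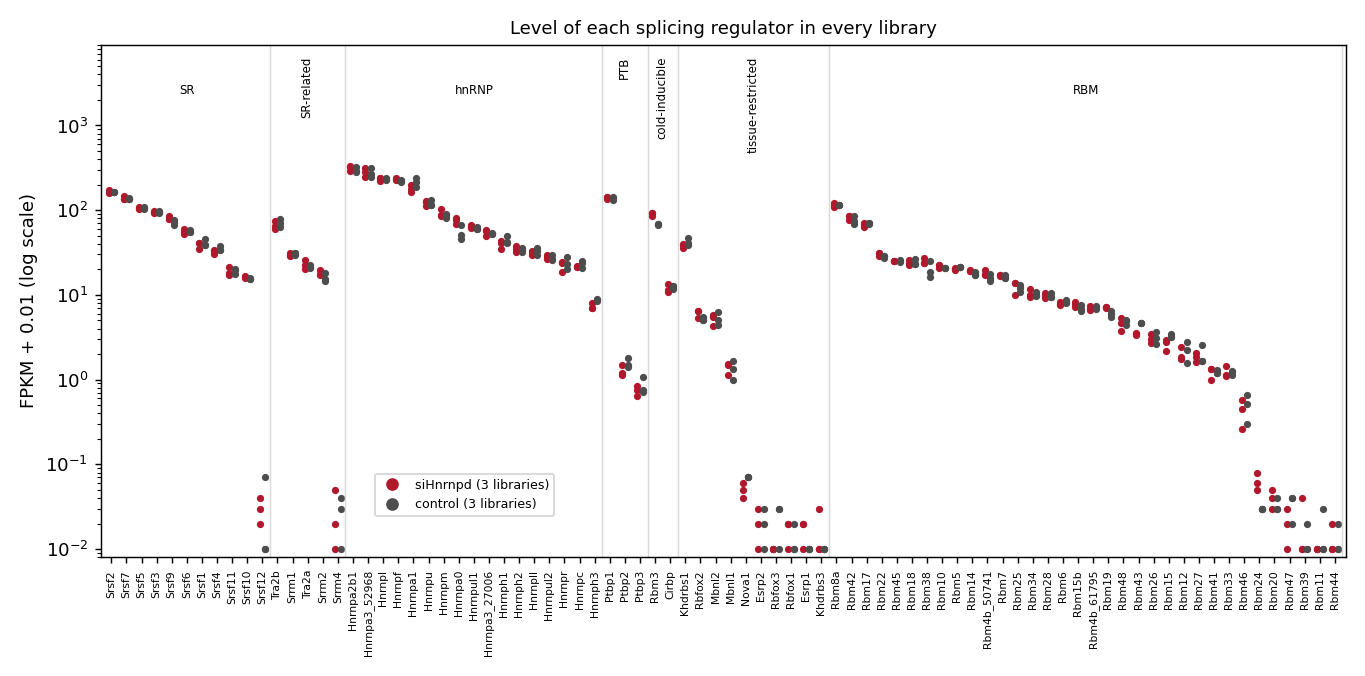
FPKM + 0.01 on a log scale (vertical axis) for all 82 members (horizontal axis), by family and ordered by mean within it; each point is a library, siHnrnpd in red left of control in grey, and the 5-digit suffixes mark rows that share a symbol. The points of most genes lie together, the 11 highest members are at 100 FPKM or more, and 14 members lie near the bottom at under 0.1 FPKM.

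Several tissue-restricted regulators had few or no counts on these rat gene models. Whether the gene models or the species of the reads play a part in that was not tested. Which of these regulators also act in the inner ear was not examined. Esrp1 and Esrp2, the epithelial splicing regulators, had at most 3 counts in any library. Rbfox1 and Rbfox3 had at most 2 counts, and Nova1, a neuronal regulator, had 7, 4 and 5 counts in siHnrnpd 1 to 3 and 8, 8 and 10 counts in control 1 to 3. Srrm4, which drives neural microexons, had at most 3 counts. Rbm20, known for titin splicing in heart, had at most 9 counts. Rbm24, known from muscle among other tissues, had 4, 7 and 5 counts in siHnrnpd and 2, 2 and 2 in control. These genes, with Khdrbs3, Rbm11, Rbm39, Rbm44, Rbm47 and Srsf12, make up the 14 members left out by the filter on low counts, and no change was tested for them. Rbm39 is a different case, a spliceosome-associated factor used by most cells. It was listed at 2 counts in siHnrnpd 2, 1 in control 2 and 0 in the other libraries, and whether so low a listing reflects the gene model was not tested, so it is not read as low expression.

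The broad members of the same tissue-restricted families were present. Khdrbs1 (Sam68), a signal-regulated splicing factor, averaged 38.0 ± 2.22 FPKM in siHnrnpd and 42.4 ± 4.10 FPKM in control (SD, n = 3 each). Rbfox2, which binds GCAUG, was at 6.12 ± 0.65 FPKM in siHnrnpd and 5.19 ± 0.20 FPKM in control. Mbnl2 was at 5.18 ± 0.83 and Mbnl1 at 1.36 ± 0.22 FPKM in siHnrnpd, against 5.24 ± 0.97 and 1.31 ± 0.32 FPKM in control. Within the PTB family, whose switch from Ptbp1 to Ptbp2 marks neuronal differentiation, Ptbp1 made up 98.6 ± 0.18% of the FPKM in siHnrnpd and 98.3 ± 0.19% in control.

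The comparison of siHnrnpd with control asks whether lowering one hnRNP moves the levels of the others. It was made with edgeR's quasi-likelihood test over 12268 genes, with Benjamini-Hochberg adjustment over all of them, and a gene passed at an adjusted p under 0.05. Of the 82 members, 68 could be tested, and 0 passed in either direction, against 0.0815% of all genes (0.0245% higher and 0.0571% lower). Those are 10 genes, so a count of 0 among 68 is close to the background. At an unadjusted p under 0.05 there were 3 members higher and 4 lower, which is 10.3% of the 68, against 11.0% of all genes (5.84% higher and 5.2% lower). The members' share was thus near the background. DESeq2 passed 2 members, both higher (Rbm3 and Hnrnpa0), or 2.94%, against 1.41% of all genes with a DESeq2 adjusted p (0.48% higher and 0.934% lower).

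Most values were small. The median log2 change was -0.012, against 0.0054 over all genes tested, and 32 of 68 were positive (47.1%, against 51.7% of all genes). A log2 change of at least 0.2 in size was found in 12 members (17.6%, against 24.4% of all genes). The median size was 0.072 for the members and 0.10 for all genes. The members were also less variable between replicates, with a median coefficient of variation of 6.28% in siHnrnpd and 5.99% in control, against 8.32% and 8.39% over all genes. The genes were not matched to the members by level, so whether these differences are particular to the members was not tested. The groups did not overlap in 11 members (16.2%, against 17.0% of all genes), 6 higher and 5 lower in siHnrnpd (8.82% and 7.35%, against 8.42% and 8.57% of all genes). The 6 were Rbm3, Hnrnpa0, Rbm19, Rbm14, Rbm22 and Hnrnpf, and the 5 were Rbm43, Hnrnph3, Rbm15, Srsf4 and Rbm5. Of these 11, Rbm14, Rbm22, Hnrnpf, Srsf4 and Rbm5 had log2 changes between -0.13 and 0.12.

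**Figure D2:**
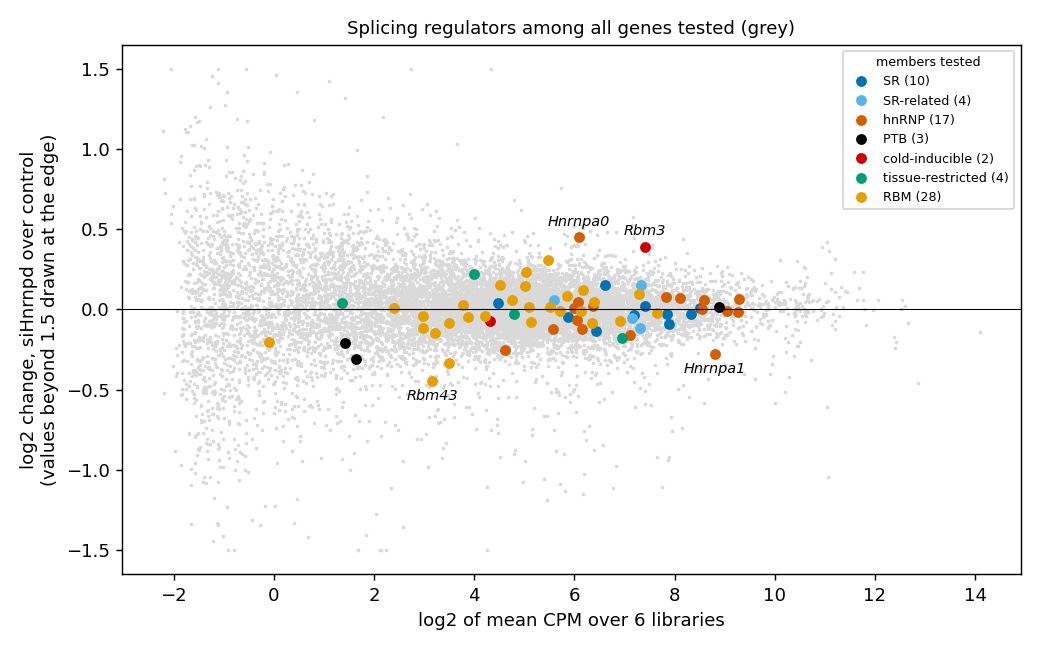
Log2 change in siHnrnpd over control (vertical axis) against the log2 of the mean CPM over 6 libraries (horizontal axis) for all 12268 genes tested in grey and the 68 members tested in colour by family. Members cluster around 0, with Hnrnpa0 (0.45) and Rbm3 (0.39) at the top and Rbm43 (-0.44) at the bottom.

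The cold-inducible proteins are a pair of small RNA-binding proteins, Rbm3 and Cirbp, whose transcripts rise when cells are cooled and which help keep translation going. Rbm3 (ENSRNOG00000005387, chromosome X) had 184, 198 and 195 CPM in siHnrnpd 1 to 3 and 147, 150 and 143 CPM in control 1 to 3. All siHnrnpd libraries lay above all control libraries, with a wider gap than spread. Its mean was 131% of control, and its log2 change of 0.39 with an SE of 0.063 had the smallest p among the members and missed the threshold (edgeR adjusted p = 0.0676). It passed with DESeq2 (adjusted p = 9.45e-05) and in edgeR with no filter on low counts (adjusted p = 0.0112). Leaving out 1 library at a time gave log2 changes of 0.37 to 0.42 and edgeR adjusted p of 0.0886 to 0.432.

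Cirbp (ENSRNOG00000015999, chromosome 7) stayed close to its control level. It had 17.8, 18.9 and 21.3 CPM in siHnrnpd and 19.4, 21.1 and 20.5 CPM in control, so the groups overlapped, and its log2 value was -0.074 with an SE of 0.093 (edgeR adjusted p = 0.810). The FPKM of Rbm3 stood at 88.5 ± 0.76% of the sum of both genes in siHnrnpd and 84.8 ± 0.59% in control (SD, n = 3 each). Their log2 FPKM ratio was 2.94 ± 0.11 in siHnrnpd and 2.48 ± 0.066 in control, a difference of 0.47 without overlap (exact two-sided permutation p = 0.1, the smallest that 3 against 3 libraries allow; 0.3 after adjustment over 15 pairs). Other genes that respond to temperature and stress gave 0 of 13 tested at an unadjusted p under 0.05 (edgeR, 11.0% of all genes). DESeq2 passed 0 of them (1.41% of all genes). Their median log2 value was -0.0022, but single values ran from -0.68 to 0.49, 3 were at least 0.2 in size and 1 had groups that did not overlap. Among them the chaperone Hsph1 had 133 ± 7.15 CPM in siHnrnpd and 146 ± 8.53 CPM in control.

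The sequences around the starts of Rbm3 and Cirbp are shown because the ratio of these 2 relatives had the largest shift among the 15 pairs of related genes described further on. They are RefSeq sequences of the rat assembly GRCr8, from 250 bases before the start to 50 after it. They lie at chrX:17020655-17020954 on the plus strand and chr7:10189426-10189725 on the minus strand. GRCr8 is not the build named for the reads. The line is usually described as murine, and whether these sequences are those of the cells used was not tested. Capitals mark matches, on either strand, to the CCAAT box, to the string CCGGAAG bound by ETS factors and to the GC-box string CCCCGCC.
Rbm3: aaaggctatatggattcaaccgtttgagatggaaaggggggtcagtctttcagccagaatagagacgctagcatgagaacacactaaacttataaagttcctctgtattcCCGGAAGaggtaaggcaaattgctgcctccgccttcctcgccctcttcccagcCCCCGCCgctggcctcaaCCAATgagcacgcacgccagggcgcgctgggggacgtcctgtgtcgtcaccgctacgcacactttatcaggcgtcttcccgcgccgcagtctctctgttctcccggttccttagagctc
Cirbp: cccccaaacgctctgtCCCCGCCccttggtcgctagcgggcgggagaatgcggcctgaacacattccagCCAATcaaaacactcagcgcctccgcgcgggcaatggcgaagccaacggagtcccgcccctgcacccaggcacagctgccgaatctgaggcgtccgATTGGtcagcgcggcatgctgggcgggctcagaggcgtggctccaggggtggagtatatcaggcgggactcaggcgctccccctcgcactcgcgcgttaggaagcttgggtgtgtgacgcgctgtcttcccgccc
Both hold the CCAAT box and also CCCCGCC, and Rbm3 also holds CCGGAAG. The string CCCCGCC was found in 20.9% of the 33469 promoters in the table, CCAAT in 37.5% and CCGGAAG in 8.75%. Among the 68 member symbols with a promoter entry the shares were 44.1%, 54.4% and 16.2%. The 33469 promoters are all entries, not only those of genes expressed in these cells. No share over expressed genes was computed, so whether the difference is particular to the members was not tested. None of the marked strings overlaps another. The matches are a description of these letters, not evidence of binding.

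Among the hnRNPs, Hnrnpa0 stood out. It encodes an hnRNP that, like AUF1, binds AU-rich elements, and it is a substrate of a stress kinase in macrophages. Hnrnpa0 (ENSRNOG00000039876, chromosome 17) had 80.7, 72.4 and 83.9 CPM in siHnrnpd and 48.3, 54.9 and 69.9 CPM in control. The groups did not overlap, but control 3 came close to siHnrnpd 2. Its log2 value of 0.45 (SE 0.12) was not passed by edgeR (adjusted p = 0.264) but was by DESeq2 (adjusted p = 0.0296) and by edgeR with no filter on low counts (adjusted p = 0.0354). Leaving out 1 library at a time gave log2 values of 0.33 to 0.61, lowest without control 1.

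Hnrnpa1, a close relative of Hnrnpa2b1, had 375, 449 and 390 CPM in siHnrnpd and 550, 502 and 420 CPM in control. The groups overlapped because control 3 lay below siHnrnpd 2, and the log2 value was -0.28 with an SE of 0.11 (edgeR adjusted p = 0.394). Hnrnph3, a G-run binding relative of Hnrnpf, had 21.4, 21.6 and 24.1 CPM in siHnrnpd and 26.9, 26.2 and 26.9 CPM in control. Here the groups did not overlap, with a log2 value of -0.25 and an SE of 0.078 (edgeR adjusted p = 0.322). Over the 17 hnRNP rows the median log2 value was 0.0023, with 9 positive and 8 negative. Hnrnpu, which holds chromatin-bound RNA, and Hnrnpl lay at -0.012 and -0.015. The 2 Hnrnpa3 rows, on chromosomes 3 and 10, were at 0.0023 and 0.045, and Hnrnpm, which binds GU-rich sites, was at 0.075. Hnrnpc, which keeps cryptic exons out of mRNA, had 21.6 ± 0.34 FPKM in siHnrnpd and 23.3 ± 2.06 FPKM in control (SD, n = 3 each), a log2 value of -0.12 with an SE of 0.084 (edgeR adjusted p = 0.612).

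**Figure D3:**
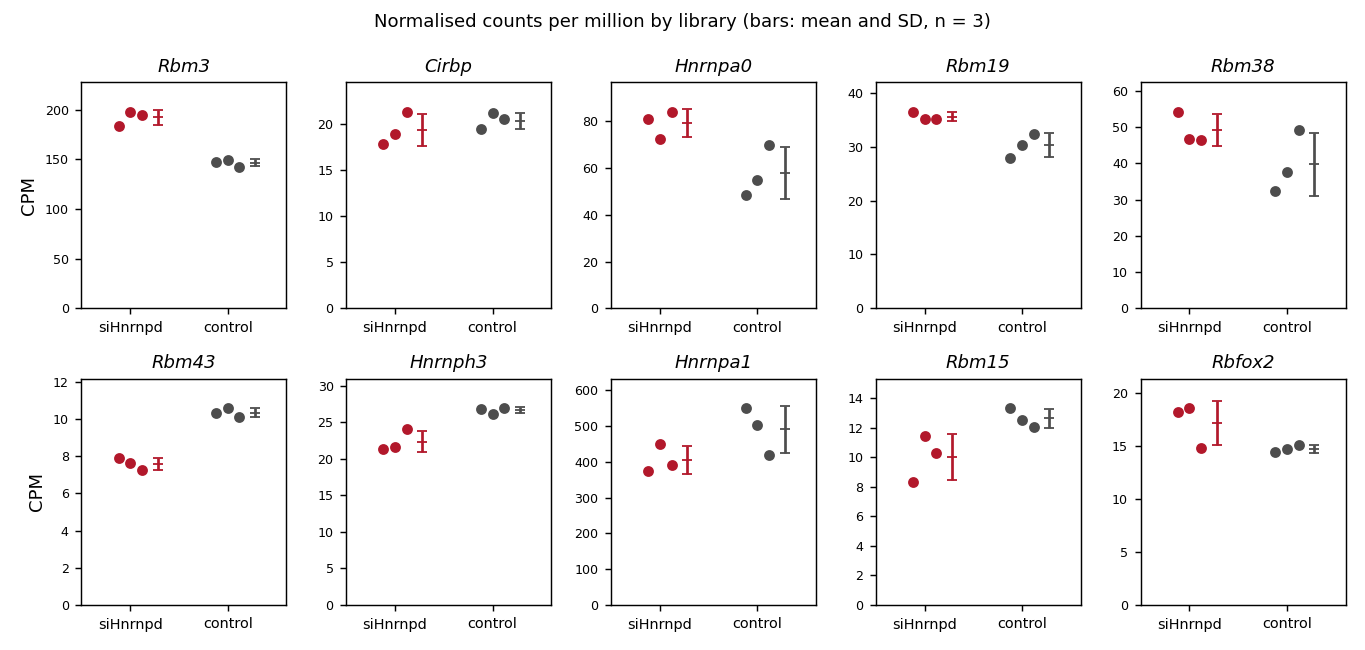
CPM (vertical axis, from 0) of 10 members in each library, siHnrnpd in red left of control in grey, with the mean and SD of 3 libraries beside the points. Rbm3, Hnrnpa0 and Rbm19 lie higher in every siHnrnpd library, Rbm43, Hnrnph3 and Rbm15 lie lower in every one, and Cirbp, Rbm38, Hnrnpa1 and Rbfox2 overlap.

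The RBM genes hold both directions. Rbm43, a small RRM protein, had 7.89, 7.64 and 7.26 CPM in siHnrnpd and 10.3, 10.6 and 10.1 CPM in control. The groups were apart with little spread in either, and the log2 value of -0.44 with an SE of 0.10 was the lowest of all members but did not pass (edgeR adjusted p = 0.185; DESeq2 adjusted p = 0.0632). Rbm15, which recruits the machinery that methylates adenosine in RNA, had 8.31, 11.4 and 10.3 CPM in siHnrnpd and 13.3, 12.6 and 12.1 CPM in control. Its groups were also apart, but siHnrnpd 1 lay well under the others, and the log2 value of -0.34 was -0.22 without that library. Rbm19, needed for ribosomal RNA processing, had 36.4, 35.1 and 35.1 CPM in siHnrnpd and 27.9, 30.3 and 32.4 CPM in control. Every siHnrnpd library was above every control library, and the log2 value was 0.23 with an SE of 0.075 (edgeR adjusted p = 0.323). Without control 1 that value was 0.17.

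Rbm38, a p53 target that stabilises Cdkn1a mRNA, shows how much a single library can weigh. It had 54.2, 46.8 and 46.4 CPM in siHnrnpd and 32.3, 37.6 and 49.1 CPM in control, so control 3 lay inside the siHnrnpd range. Its log2 value of 0.31 (edgeR adjusted p = 0.453) was 0.17 without control 1 and 0.49 without control 3. Over the 28 RBM genes tested the median was -0.0095, with 13 positive and 15 negative. Among the highly expressed ones, Rbm42 had 82.1 ± 5.16 FPKM in siHnrnpd and 76.0 ± 7.98 FPKM in control, and Rbm17, which acts on 3' splice sites, had 66.9 ± 3.24 FPKM in siHnrnpd and 69.4 ± 0.49 FPKM in control. Both overlapped between the groups. Rbm25, a regulator of apoptotic gene splicing, had 12.5 ± 2.22 FPKM in siHnrnpd and 12.1 ± 1.12 FPKM in control. The 2 rows named Rbm4b, both on chromosome 1 and alike in sequence to Rbm4, were at 0.15 and -0.050 on the log2 scale, and their split of reads is uncertain.

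The SR genes had log2 values near 0. All 10 tested had log2 values between -0.13 and 0.15, with a median of -0.027, 0 at an unadjusted p under 0.05 by edgeR (11.0% of all genes) and 0 passed by DESeq2 (1.41% of all genes). In a list of 10, counts of 0 are near the background. Srsf9, an SR protein that can also repress exons, was at the top with 110, 101 and 97.6 CPM in siHnrnpd and 86.1, 94.0 and 98.0 CPM in control, where control 3 overlapped siHnrnpd 3. Srsf4, a large SR protein, was at the bottom with 84.5, 78.0 and 85.9 CPM in siHnrnpd and 86.8, 90.1 and 95.2 CPM in control. These groups were apart by a small margin, and the log2 value was -0.13 with an SE of 0.070 (edgeR adjusted p = 0.519). Srsf2 had a log2 value of 0.011 with an SE of 0.061.

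The SR-related genes Tra2a, Tra2b, Srrm1 and Srrm2 had log2 values from -0.11 to 0.15, and all 4 had edgeR adjusted p of 0.549 or more. Srrm2, a scaffold of nuclear speckles, had 168, 162 and 181 CPM in siHnrnpd and 139, 150 and 171 CPM in control, and Tra2b, a partner of SR proteins on exons, had 138, 176 and 145 CPM in siHnrnpd and 186, 167 and 144 CPM in control. Both overlapped between the groups, with control 1 at opposite ends. Without control 1 the log2 value of Srrm2 was 0.075 and that of Tra2b -0.034, and over all libraries left out in turn they ran from 0.075 to 0.24 and from -0.23 to -0.034. Control 1 weighed on Srsf9, Khdrbs1 and Ptbp2 as well, which were at 0.088, -0.11 and -0.20 without it. Rbm19 and Hnrnpa1 were at 0.17 and -0.20 without it. Khdrbs1 and Rbfox2 had log2 values of -0.18 and 0.22 (edgeR adjusted p = 0.495 and 0.478). Ptbp1 was at 0.017 with an SE of 0.062 and Ptbp2, at 2.49 to 3.21 CPM in siHnrnpd and 3.17 to 4.03 CPM in control, at -0.31 with an SE of 0.17.

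Ratios within pairs of related genes were compared because such proteins often compete for the same sites. Of 19 pairs, 15 had both genes at 1 FPKM or more, and 5 of these did not overlap between the groups. The share of 17.0% over all genes is for the CPM of single genes and is no background for ratios. No share over other gene pairs was computed, so whether 5 is more than usual cannot be said. The 5 are not separate observations, since Hnrnph1 is in 2 of them. Besides Rbm3 over Cirbp, these were Hnrnpa1 over Hnrnpa2b1, Hnrnph1 over Hnrnph2, Hnrnpf over Hnrnph1 and Rbm5 over Rbm10. The log2 ratio of Hnrnpa1 to Hnrnpa2b1 was -0.82 ± 0.063 in siHnrnpd and -0.48 ± 0.11 in control (SD, n = 3 each), a difference of -0.33 (exact two-sided permutation p = 0.1, 0.3 adjusted over the pairs). Rbm5 and Rbm10, which share targets such as Fas, had a log2 ratio of -0.10 ± 0.057 in siHnrnpd and 0.032 ± 0.020 in control, a difference of -0.13. None of the 15 pairs could pass, since the design allows no p under 0.1.

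**Figure D4:**
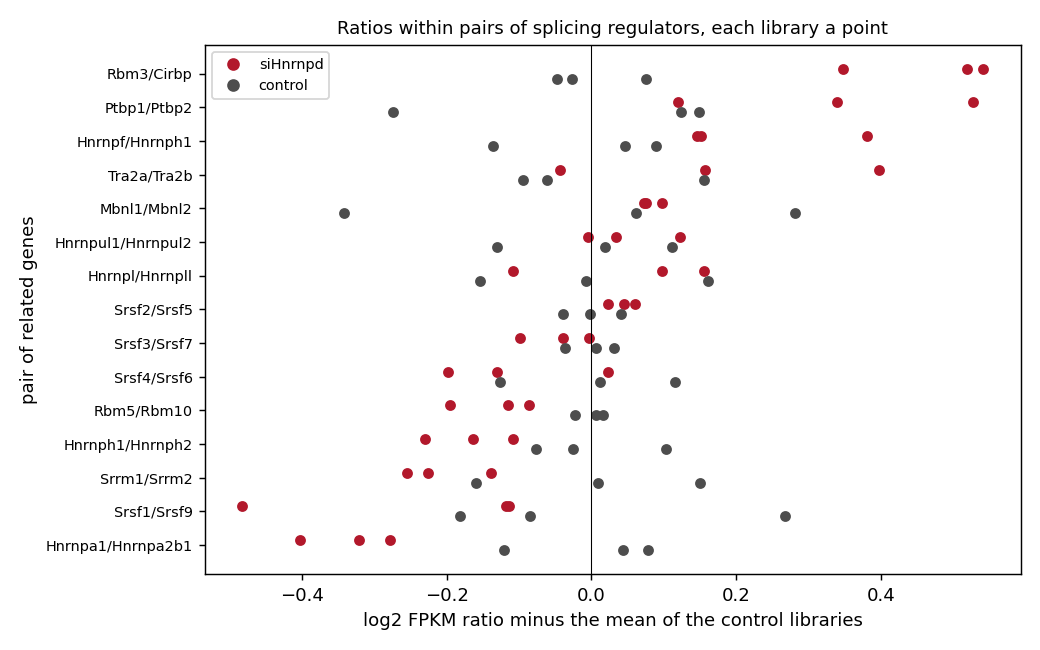
Log2 FPKM ratio of 15 pairs of related splicing regulators minus its mean in the control libraries (horizontal axis), with siHnrnpd points in red above control points in grey. Rbm3 over Cirbp lies about 0.47 to the right in siHnrnpd and Hnrnpa1 over Hnrnpa2b1 about 0.33 to the left, and most other pairs overlap.

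Individual libraries stood apart over many members at once. siHnrnpd 1 was the lowest of the 6 libraries in 32 of the 68 members (47.1%, against 20.5% of all genes), and control 1 was the highest in 27 (39.7%, against 24%). In log2(CPM + 0.5) relative to the control mean, the median member lay at -0.086 in siHnrnpd 1 and at 0.032 and 0.018 in siHnrnpd 2 and 3, while controls 1 to 3 lay at 0.038, -0.0076 and -0.036. Over all genes these medians were within -0.00099 to 0.012. siHnrnpd 1 and control 3 were the most deeply sequenced libraries of their groups, with 35534620 and 35842904 counts, and control 1 the least of all with 28984535. The part of depth in this pattern was not tested. The members' median log2 change was 0.038 without siHnrnpd 1 and 0.029 without control 1.

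**Figure D5:**
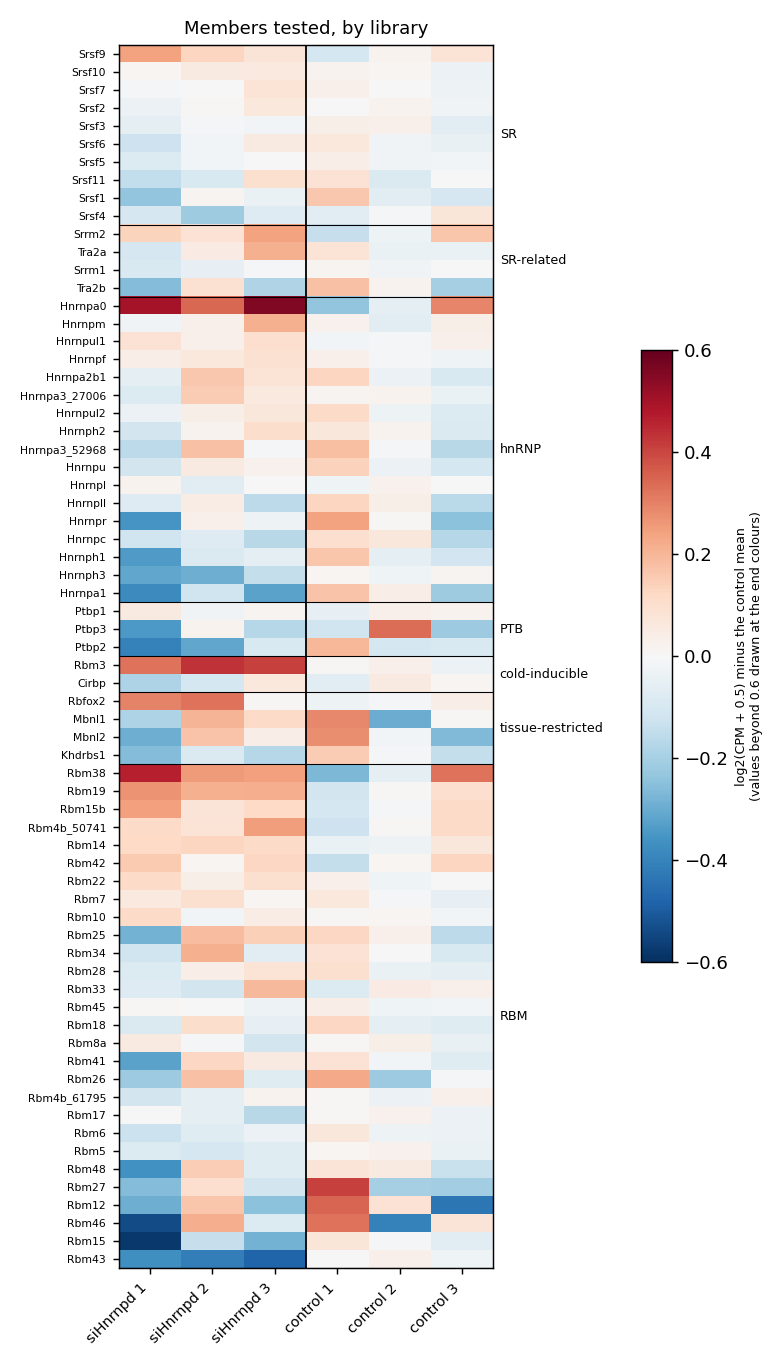
Log2(CPM + 0.5) minus the control mean (colour) of the 68 members tested (rows, by family and change) in each library (columns, siHnrnpd left of control). Rbm3 and Hnrnpa0 are red and Rbm43 blue in all 3 siHnrnpd libraries, while many hnRNP and RBM rows are blue in siHnrnpd 1 and red in control 1.

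Genes that work with these regulators were also mostly close to 0. Among 30 other splicing RNA-binding proteins tested, 0 passed by edgeR or DESeq2, with a median log2 value of 0.027. Over all genes 0.0815% passed by edgeR and 1.41% by DESeq2, so a count of 0 in such a list is near the background. An unadjusted p under 0.05 was found for 2 on the higher side and 2 on the lower (5.84% and 5.2% of all genes, or 11.0% together). These shares over all genes also apply to the lists that follow. The paraspeckle protein gene Pspc1 was the one with the smallest p, at 26.0 ± 2.09 CPM in siHnrnpd and 32.7 ± 3.43 CPM in control (log2 value -0.33, edgeR adjusted p = 0.295). Among 26 further SR-related splicing factors the median was -0.052 and 1 was lower at an unadjusted p under 0.05, Luc7l, whose product is a relative of a U1 snRNP protein. Among 20 kinases, phosphatases and importins of SR proteins the median was -0.0099 and again 1 was lower, the kinase gene Dyrk2. The SR kinase Clk1, whose activity depends on temperature, had 50.6 ± 5.34 CPM in siHnrnpd and 55.2 ± 3.36 CPM in control. Among 18 factors of nonsense-mediated decay, the pathway that destroys the unproductive transcripts of many SR and hnRNP genes, the median was 0.0022, with 10 positive and 8 negative, and an unadjusted p under 0.05 was found for 1 higher and 1 lower gene (11.0% of all genes). The higher one was Smg5, which acts on the phosphorylated decay factor Upf1, at 104 ± 6.21 CPM in siHnrnpd and 88.9 ± 9.97 CPM in control (log2 value 0.22, edgeR adjusted p = 0.423). The lower one was Ncbp2, a cap-binding subunit, which had 70.0 ± 2.33 CPM in siHnrnpd and 85.9 ± 3.62 CPM in control (SD, n = 3 each). Its log2 change of -0.29 passed by DESeq2 (adjusted p = 0.0220) and not by edgeR (adjusted p = 0.175). It was the 1 gene of these 18 that DESeq2 passed, against 1.41% of all genes. In a list of 18, a count of 1 says little.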

How the data were processed

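RNA of 6 HEI-OC1 libraries was read as 150 nt paired ends, per the labels' protocols. The authors deposited raw gene counts for 18718 rows and FPKM values for 18628. Reads were aligned with TopHat2, and the build is given as mRatBN7.2, per the submitters' processing notes. The counter, strand setting and annotation: not given in the sources used here. So reads of overlapping or antisense genes cannot be told apart. Columns were matched to samples by siRNA name and replicate number, and 0 stayed unmatched.

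The gene counts went into edgeR 4.0.16 under R 4.3.3 (TMM scaling, filterByExpr, quasi-likelihood fit on group alone, Benjamini-Hochberg adjustment over 12268 genes). SEs were derived from the F statistic. The median SE of a log2 change was 0.10. Alternatives were DESeq2 1.42.0, limma 3.58.1 on voom weights or log2(FPKM + 1) and log2(FPKM + 0.1) with a mean of at least 1 FPKM, other scalings and filters, the replicate number as a block, and leaving out each library. FPKM fold changes of low genes are understated by the pseudocount. The functions were tested on simulated data.

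The members and lists were chosen with earlier results of these data known. Of 200 list entries, 172 matched by symbol and 3 by synonym. Members named in the text were Rbm3 and Cirbp, the 10 of smallest p, the 5 highest and 5 lowest changes at a mean of 5 CPM or more, per family the highest FPKM and smallest p, the preset pairs, and up to 3 list genes of smallest p. Other members are named for their role, their level or their place apart between the groups, after their values were seen, as were the list genes Hsph1, Clk1 and the markers.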

Additional observations from a re-analysis of the deposited data

How the results depend on the processing

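No member passed lower under any alternative. Members passed higher numbered 2 with DESeq2 and 2 in edgeR with no filter on low counts, Rbm3 and Hnrnpa0 each time, where the log2 change of Rbm3 was 0.39 by both (0.387 and 0.388). Counts over all genes moved more: 10 in edgeR, 162 with DESeq2, 147 with no filter, 6 with upper-quartile scaling, 5 on log2(FPKM + 0.1), 0 on log2(FPKM + 1) with or without the minimum, 0 with the replicate block and 0 to 14 without 1 library (0 without any of the controls, 14 without siHnrnpd 3). The causes were not tested. The target Hnrpd kept its direction in all 16 alternatives. It did not pass on log2(FPKM + 1) (-0.65 with and without the minimum; limma adjusted p = 0.0508 and 0.137) or with the replicate block (-0.67), and without 1 library its log2 change was -0.74 to -0.63 (edgeR adjusted p = 0.0458 without siHnrnpd 2 and 0.0508 to 0.319 without any other library). In the labels only the number links replicates of the 2 groups. Deviations from the group means correlated at -0.262, 0.137 and 0.104 in pairs 1 to 3, and at -0.332 to 0.232 between libraries of different number. With 3 libraries per group these values cannot decide whether libraries of the same number belong together. With the block, Rbm3 had a log2 change of 0.39 (edgeR adjusted p = 0.230). Of the 68 members tested, 39 had the same sign throughout, including all 7 at an unadjusted p under 0.05. Values near 0 changed sign when a library was left out. Ptbp1 ranged from -0.0187 to 0.0353 (-0.0187 without control 1, -0.00221 without siHnrnpd 1), Srsf2 from -0.0257 to 0.0343 (-3.55e-05 without control 1, -0.0257 without siHnrnpd 3) and Rbm8a from -0.0584 to 0.0111 (highest without siHnrnpd 3). The between-group difference in log2 ratio ranged from -0.0895 to 0.222 for Mbnl1/Mbnl2 (lowest without control 2), -0.0286 to 0.129 for Hnrnpl/Hnrnpll (-0.0286 without control 1, -0.0050 without siHnrnpd 3) and -0.0148 to 0.107 for Hnrnpul1/Hnrnpul2 (lowest without control 1). The 14 members under the filter had 10 counts or fewer per library, too few for a test.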
